A study of Mus musculus with 12 samples.

Results

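Ptbp1, Ptbp2, Elavl1 to Elavl4, Mbnl1 and Mbnl2 are RNA binding proteins that set tissue-specific exon choice and mRNA fate in the brain. With Nova1 they make a group of 9 neuronal splicing regulators, chosen by gene symbol. In the table used here 103 of the 221417 main probesets with a gene symbol carried one of these symbols, and they measured 8 of the 9 genes, out of 17550 symbols in all. No main probeset carried the symbol Nova1, which is not analysed here. A probeset is a small set of probes for 1 exon, or for part of it, and its signal is the summary of their brightness. Ptbp1 had 22 main probesets, Mbnl1 17, Ptbp2 14, Elavl2 12, Elavl4 12, Mbnl2 11, Elavl1 8 and Elavl3 7. The samples were 12 whole brains of newborn female mice, 6 KIS +/+ (wildtype) and 6 KIS -/- (KIS-ko). Total RNA of each brain was processed for hybridization to 1 Affymetrix Mouse Exon 1.0 ST array. Each of 6 litters gave 1 brain of either genotype, and the knock-out line had been backcrossed to C57BL6/N. No animal received a treatment. The question was whether the levels or the exon usage of tissue splicing regulators differ at birth when KIS is missing.

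KIS, encoded by Uhmk1, is a serine/threonine kinase that also carries a U2AF homology motif, a domain that binds other splicing factors, and phosphorylates SF1, the factor that binds the branch point of introns at the start of spliceosome assembly. The regulators described here act more selectively, by binding short motifs in or beside particular exons. Ptbp1 binds pyrimidine-rich RNA and represses neuronal exons in progenitors and non-neuronal cells. Its paralogue Ptbp2 takes its place in young neurons, partly because Ptbp1 makes Ptbp2 mRNA skip an exon and decay. The Elavl proteins bind AU-rich and U-rich RNA. Elavl1 is found in nearly all cells, whereas Elavl2, Elavl3 and Elavl4 mark neurons. Mbnl1 and Mbnl2, the muscleblind proteins, promote the exon patterns of mature tissue. Nova1 acts on pre-mRNAs of synaptic proteins. In bulk tissue, fewer cells that express a gene and less of its RNA per cell cannot be told apart.

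The genotype labels were borne out by Uhmk1 itself. Its gene value, which is the mean over a gene's probesets of log2(signal + 16), lay between 10.89 and 11.07 in wildtype and between 8.62 and 8.98 in KIS-ko brains. This amounted to a log2 difference of -2.11 (SE 0.068), and the KIS-ko littermate was lower in 6 of 6 litters (limma, adjusted p = 2.9e-07). The median signal of an array lay between 549 and 626. The 95th percentile of 5222 intron control probesets, used here as the border of dim signals, was 713. Neuron markers showed the labelled tissue, as all 7 of 7 measured (Tubb3, Snap25, Stmn2, Dcx, Nefl, Syt1, Gap43) had a median probeset signal above that border. Their signals summed to between 54591 and 58445 in wildtype and between 53638 and 57399 in KIS-ko brains. Of 56 markers in 10 lists of cell types and states, 43 had a lower mean in KIS-ko, 1 had an unadjusted limma p under 0.05 and 0 passed the adjusted threshold of 0.05. Over all genes the shares were 69.8%, 6.16% and 0.00579%. The 1 marker was Gfap, of astrocytes, at a log2 difference of -0.27 and not above the control border.

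All 8 measured regulators had a slightly lower mean in KIS-ko brains, and none of the differences exceeded the spread between littermates. Log2 differences, KIS-ko minus wildtype, ran from -0.074 for Ptbp2 to -0.017 for Elavl3, with a median of -0.038. The gene of largest difference was Elavl2 without litter 1 or 2, Mbnl2 without litter 3, Elavl4 with the median over probesets (-0.094), and Elavl3, higher in KIS-ko, with arrays centred on their medians. In the fit of all litters 69.8% of all 17279 genes were lower in KIS-ko and the median gene differed by -0.036, so that the group lay where the array as a whole lay. By limma with the litter as a block, 0 of the 8 passed an adjusted p of 0.05, which 0.00579% of all genes did (1 gene, Uhmk1). At an unadjusted p under 0.05 the count was also 0 of 8, against 6.16% of all genes. The direction itself depended on scaling. When every array was divided by its median signal, Ptbp1, Elavl1, Elavl3, Elavl4 and Mbnl1 had a higher mean in KIS-ko. The other 3 of the 8 stayed lower, as 38.7% of all genes were with that scaling, and the median gene differed by 0.018. Without that scaling, the 95% confidence intervals of the 8 regulators together spanned log2 differences from -0.20 to 0.10, that is -13.1% to 7.16%.

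**Figure D1:**
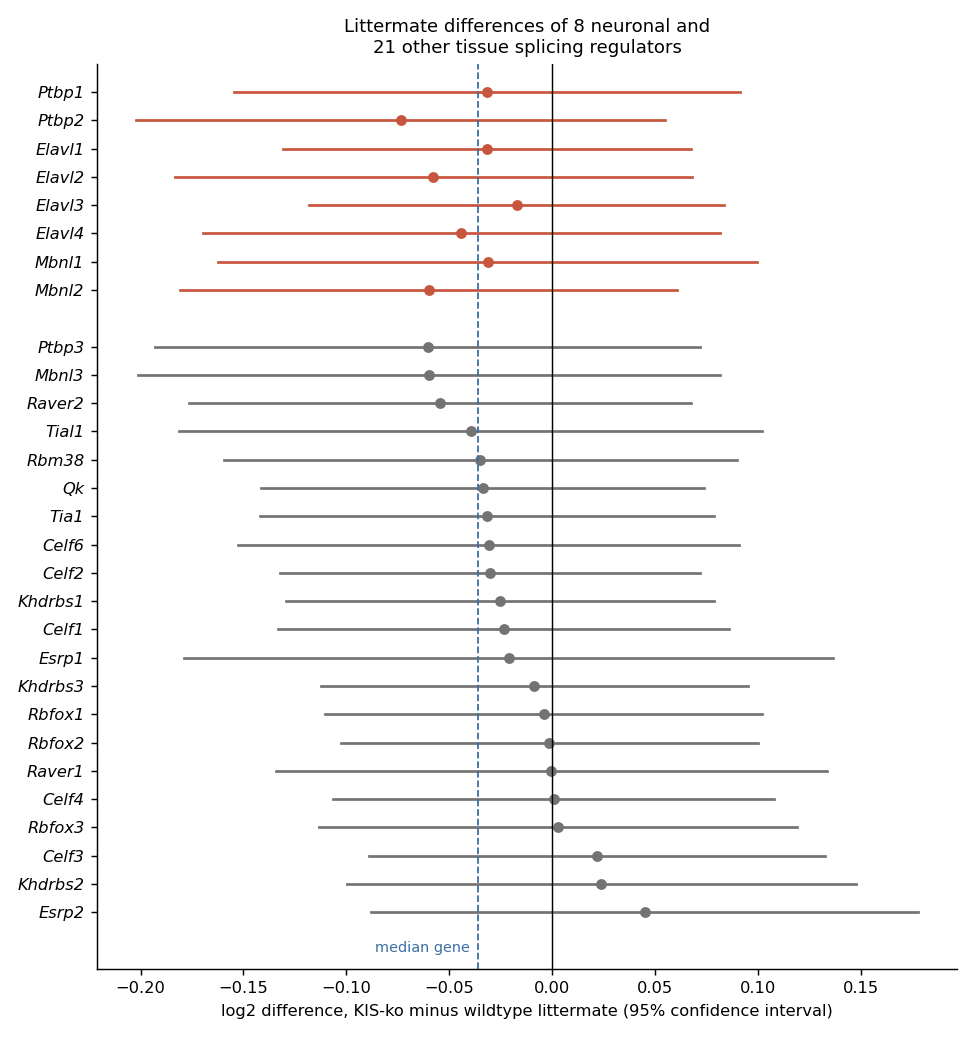
Log2 difference between KIS-ko and wildtype littermates (x axis) for 8 neuronal splicing regulators (red) and 21 other tissue splicing regulators (grey). Points are limma estimates over 6 litters, bars are 95% confidence intervals, and the dashed line is the median of all genes at -0.036. Every interval includes 0.

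Ptbp1 was read by 22 probesets (chromosome 10, 79319251 to 79327410, plus strand, as the table lists positions without naming a build). Its gene value in the 6 wildtype brains was 10.66 at the lowest, 10.83 at the median and 10.87 at the highest, and in the 6 KIS-ko brains 10.68, 10.78 and 10.84. The 2 ranges overlapped almost entirely. The log2 difference was -0.031 (95% confidence interval -0.15 to 0.091), a change of -2.16%, with a lower KIS-ko littermate in 4 of 6 litters (limma, adjusted p = 0.835). Of the 22 probesets 13 are marked in the table as matching further places, so Ptbp1 signal can include other transcripts. With the 9 others alone the log2 difference was -0.060.

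Ptbp2 was read by 14 probesets (chromosome 3, 119421932 to 119484452, minus strand), each marked as matching 1 place. The gene value was 11.96, 12.03 and 12.07 (lowest, median, highest) in wildtype, and 11.88, 11.90 and 12.14 in KIS-ko brains. In KIS-ko, 4 brains lay close together below all 6 wildtype brains and 2 lay within or above the wildtype range, among them the brain of litter 4 with the highest value of all 12. The log2 difference was -0.074 (-0.20 to 0.055), at -4.97%, with a lower KIS-ko littermate in 5 of 6 litters (adjusted p = 0.699). Without litter 4 it was -0.12, with an unadjusted p of 0.0258 and an adjusted p of 0.173. In that fit the median gene differed by -0.057 and 4017 genes of the table (23.3%) had an unadjusted p under 0.05, compared with 1065 in the fit of all litters.

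As Ptbp1 and Ptbp2 replace each other when neurons form, their ratio within each brain was also taken, a measure chosen after the values had been seen. The log2 ratio of Ptbp2 over Ptbp1 changed by -0.042 ± 0.13 (SD, n = 6 litters) between littermates, from -0.20 to 0.17, and was lower in KIS-ko in 4 of 6 litters. This change was smaller than its spread between litters. The ratio includes the Ptbp1 probesets that match further places. Over probesets matching 1 place, the log2 differences were -0.060 for Ptbp1 and -0.074 for Ptbp2.

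Elavl1, the widely expressed member that stabilizes mRNAs with AU-rich elements, had 8 probesets (chromosome 8, 4288599 to 4311729, minus strand). Wildtype gene values were 11.39, 11.45 and 11.52 (lowest, median, highest), and KIS-ko values were 11.35, 11.42 and 11.48. The ranges overlapped over most of their length. This gave a log2 difference of -0.032 (-0.13 to 0.067), at -2.18%, with 5 of 6 KIS-ko littermates lower (adjusted p = 0.792). It was -0.014 over the probesets that match 1 place and -0.069 with the median over probesets. Elavl1 varied least between litters, with an SD of 0.049 over the 6 littermate differences.

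Elavl2, also known as HuB, had 11 kept probesets (chromosome 4, 90917653 to 91066595, minus strand). A further probeset, with a mean signal of 9.13, was rejected for its relative SD of 0.703 in wildtype and 0.545 in KIS-ko brains. Gene values were 10.42, 10.51 and 10.57 in wildtype and 10.24, 10.48 and 10.54 in KIS-ko, where the brain of litter 5 was the lowest of all 12. Elavl2 differed by a log2 value of -0.058 (-0.18 to 0.068), at -3.92%, and 4 of 6 KIS-ko littermates were lower (adjusted p = 0.729). Litters 1 and 2 went the other way, by 0.079 and 0.12.

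Elavl3 (HuC) had 7 probesets (chromosome 9, 21823025 to 21856404, minus strand), all bright, with mean signals from 1576 to 11144. Its gene values, 12.62, 12.66 and 12.74 in wildtype and 12.58, 12.64 and 12.74 in KIS-ko, overlapped almost completely. Elavl3 differed by a log2 value of -0.017 (-0.12 to 0.084), at -1.18%, with 4 of 6 KIS-ko littermates lower (adjusted p = 0.891).

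Elavl4 (HuD), a neuronal member linked to neurite growth and dendritic mRNA, had 12 probesets (chromosome 4, 109877142 to 109960077, minus strand). Gene values were 10.61, 10.96 and 11.04 in wildtype and 10.63, 10.89 and 11.13 in KIS-ko, so its spread between brains was the widest of the group, with an SD of 0.157 and 0.185. Both brains of litter 5 were the lowest of their genotype. The log2 difference was -0.044 (-0.17 to 0.082), at -3.01%, with 4 of 6 KIS-ko littermates lower (adjusted p = 0.775). Against Elavl1 within each brain, the log2 ratios of Elavl2, Elavl3 and Elavl4 changed by -0.026 ± 0.12, 0.015 ± 0.054 and -0.012 ± 0.11 (SD, n = 6 litters), each smaller than its SD.

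Mbnl1 had 17 probesets (chromosome 3, 60305206 to 60432994, plus strand). Its gene values were 10.29, 10.43 and 10.45 in wildtype and 10.28, 10.38 and 10.54 in KIS-ko brains. The lowest wildtype brain and the highest KIS-ko brain were littermates, from litter 4, and the other wildtype brains lay close together. Over the litters the log2 difference was -0.031 (-0.16 to 0.0998), at -2.14%, with 5 of 6 KIS-ko littermates lower (adjusted p = 0.846). Without litter 4 it was -0.087, with an unadjusted p of 0.0841.

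Mbnl2, the paralogue with the larger known part in brain splicing, had 11 probesets (chromosome 14, 120674976 to 120828817, plus strand), each marked as matching 1 place. Gene values were 10.58, 10.69 and 10.82 in wildtype and 10.48, 10.64 and 10.72 in KIS-ko, with a wide overlap. The log2 difference was -0.060 (-0.18 to 0.061), at -4.07%, and 4 of 6 KIS-ko littermates were lower (adjusted p = 0.716). The log2 ratio of Mbnl2 over Mbnl1 changed by -0.029 ± 0.13 (SD, n = 6 litters) and was lower in 4 of 6 litters. Levels of different genes were not ranked against each other, because each probe binds its target with its own strength.

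**Figure D2:**
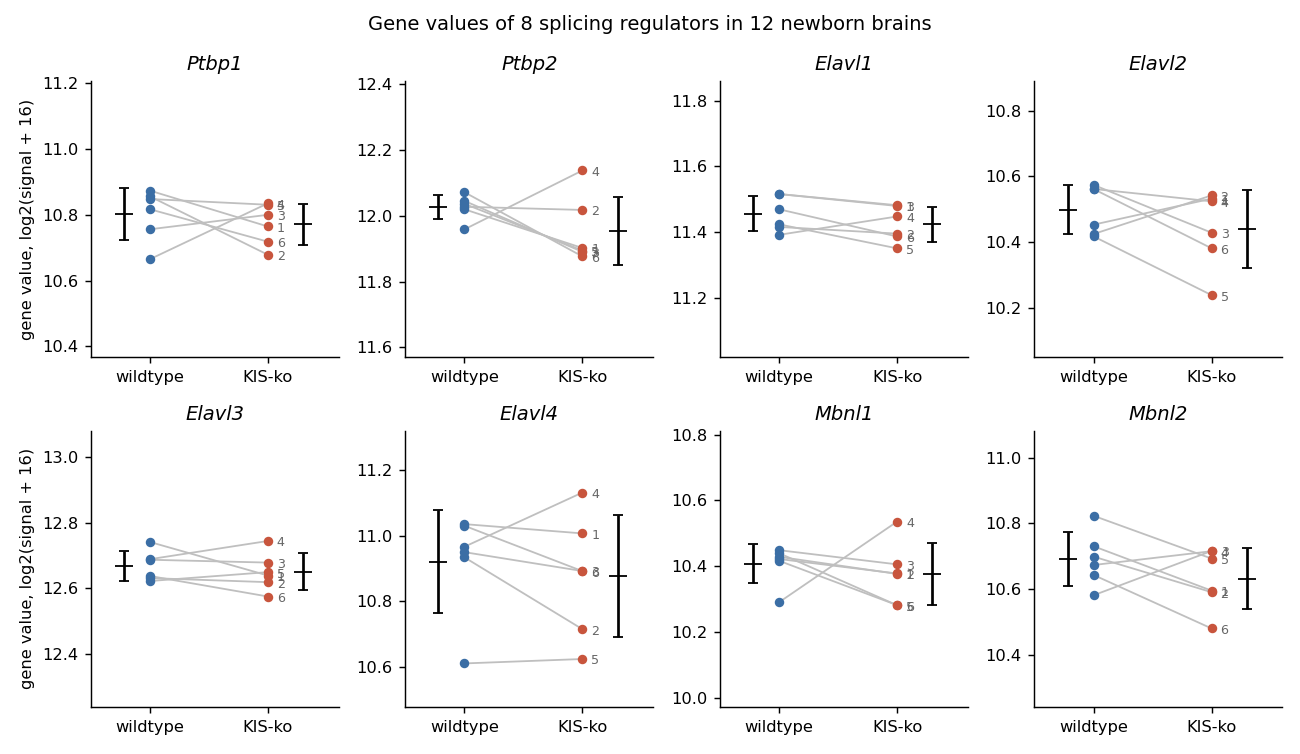
Gene value, log2(signal + 16), of 8 splicing regulators in 6 wildtype (blue) and 6 KIS-ko (red) newborn brains. Grey lines join littermates, small digits give the litter, black bars are mean ± SD, and every panel spans the same log2 range. The genotypes overlap for each gene, and the line of litter 4 rises for all genes but Elavl2.

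The change was also computed with the measure described in the study's methods. There, the KIS-ko to wildtype ratio of a probeset is averaged over the litters, and the ratio of a gene is a mean of these in which probesets with a small relative SD count more. The ratio of a gene ran from 0.959 ± 0.077 for Ptbp2 and 0.964 ± 0.075 for Mbnl2 to 0.998 ± 0.067 for Ptbp1 (SD, n = 6 litters). None of the 8 differed from 1 by 6% or more, which 26.4% of all genes did here. The study selected genes by this size of change and then ranked them by a confidence value, which was not computed here. It states a smaller share of changed genes, for a smaller set of genes. Without litter 4 the ratio of Ptbp2 was 0.923, past that limit as were 44.2% of all genes without that litter, and those of the other 7 lay between 0.948 and 0.982.

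The littermate differences of the regulators varied from litter to litter. In litter 6 all 8 regulators were lower in the KIS-ko brain, by 0.063 to 0.20 on the log2 scale. In litter 4 only Elavl2 was lower, 1 of 8, and the differences reached 0.25 for Mbnl1. The median of all genes differed by -0.11 in litter 6 and by 0.071 in litter 4, and the signal of the median probeset was 617 on the KIS-ko and 577 on the wildtype array of litter 4. In litters 1 and 2, 7 of 8 were lower, and in litters 3 and 5, 6 of 8. After the median gene of the same litter was subtracted, the number of lower regulators lay between 3 and 6 in every litter. On that scale the mean over litters was 0.006 ± 0.071 for Ptbp1, -0.036 ± 0.10 for Ptbp2, 0.005 ± 0.038 for Elavl1, -0.020 ± 0.15 for Elavl2, 0.020 ± 0.055 for Elavl3, -0.007 ± 0.083 for Elavl4, 0.006 ± 0.095 for Mbnl1 and -0.023 ± 0.081 for Mbnl2 (SD, n = 6 litters). Each of these means was smaller than its SD.

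**Figure D3:**
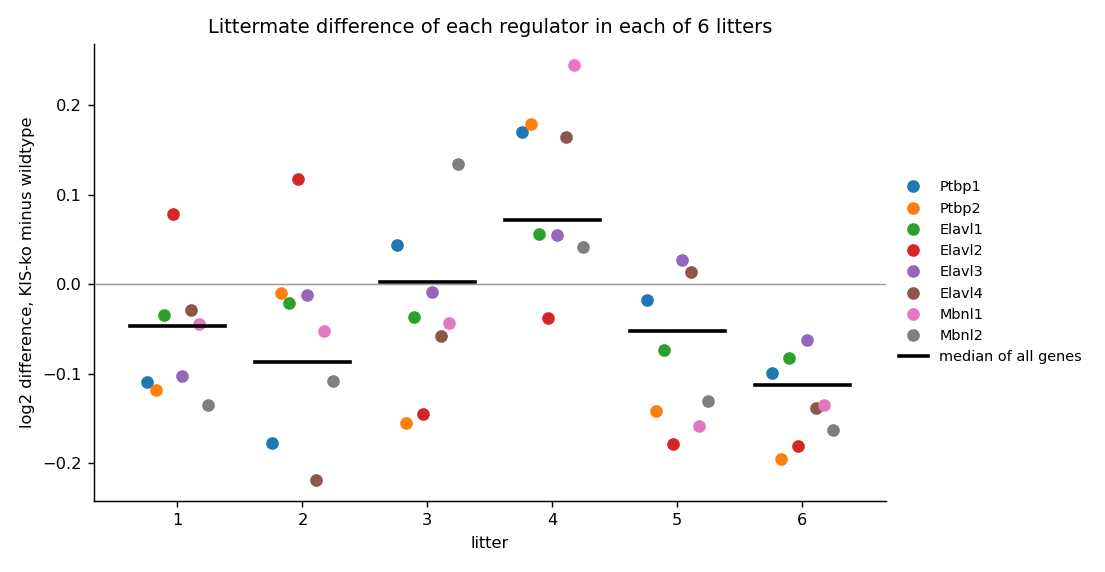
Log2 difference between the KIS-ko and the wildtype brain of each of 6 litters, for 8 splicing regulators (coloured points) and for the median of all genes (black bars). The points of litter 4 lie above 0 except for Elavl2 and those of litter 6 lie below 0, as the median of all genes does.

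Differences between litters beyond the spread within them were sought with limma's moderated F test of the litter terms. None of the 8 regulators passed an adjusted p of 0.05, as was the case for 0% of all genes. At an unadjusted p under 0.05 there was 1 of 8, compared with 1955 genes or 11.3% of the table. This was Elavl4, with an F of 5.25, an unadjusted p of 0.0120 and an adjusted p of 0.292. Its wildtype and KIS-ko gene values were 10.61 and 10.63 in litter 5, whereas in litter 1 they were 11.04 and 11.01.

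Most probesets of the regulators were bright. Of their 102 kept probesets, 91 (89.2%) had a mean signal above the border of the intron controls, as did 44.6% of all kept probesets. Every probeset of Ptbp2, Elavl1, Elavl3 and Mbnl2 was above it, and 3 of Ptbp1, 3 of Elavl2, 2 of Elavl4 and 3 of Mbnl1 were not. In Ptbp1 the mean signal ran from 102 to 6052, in Ptbp2 from 1069 to 13163, and in Mbnl2 from 864 to 3104. These spans include the probes' own binding strength and do not measure exon inclusion.

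**Figure D4:**
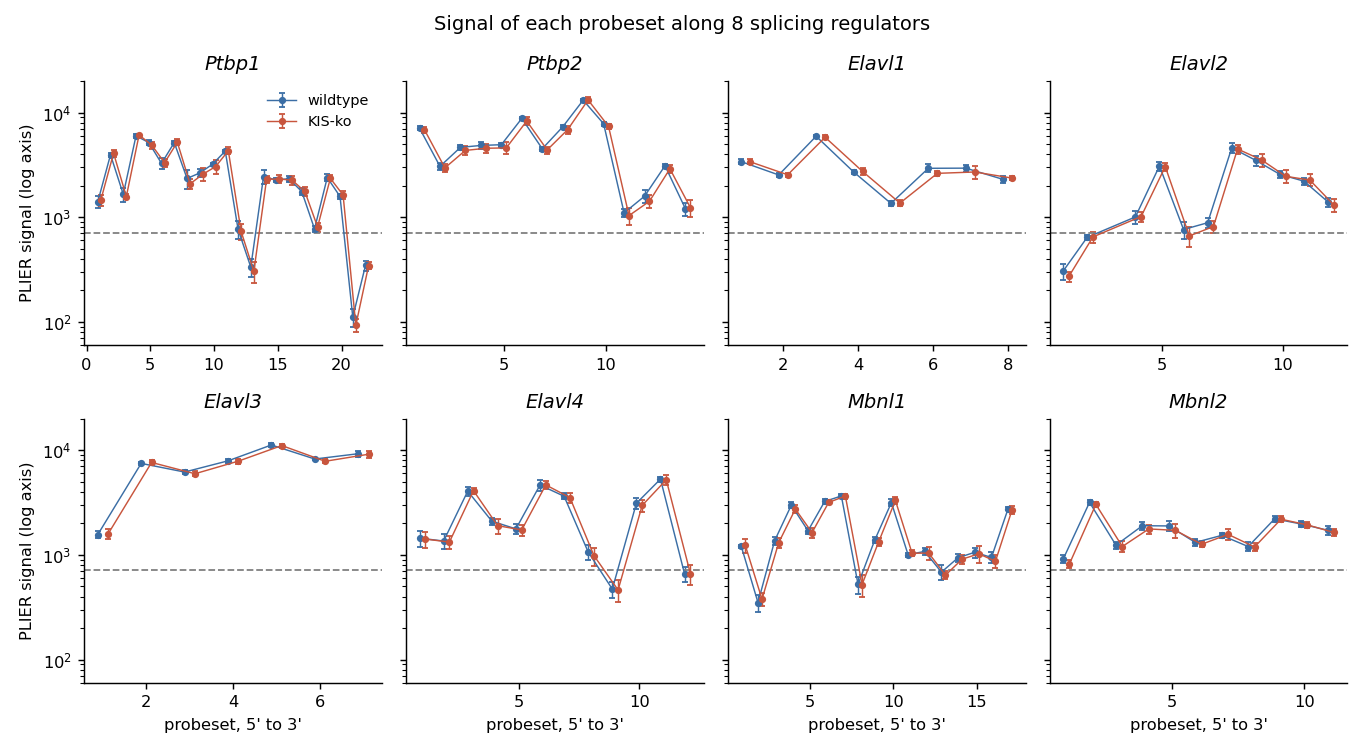
PLIER signal (log axis) of each kept probeset of 8 splicing regulators, numbered from the 5′ to the 3′ end of the gene, as mean ± SD of 6 wildtype (blue) and 6 KIS-ko (red) brains. The dashed line is the 95th percentile of intron controls, 713. The dimmest probeset shown is number 21 of Ptbp1, with a mean signal of 102.

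No single probeset of the regulators differed by more than the spread between littermates. Of the 102, 72 (70.6%) had a lower mean in KIS-ko, with a median log2 difference of -0.042, and 66.2% of all probesets were lower as well. By limma 0 of 102 passed an adjusted p of 0.05, against 0.00487% of all 205469 probesets, and 0 had an unadjusted p under 0.05, against 6.63%. Within Ptbp2 12 of 14 probesets were lower, within Mbnl2 10 of 11 and within Mbnl1 13 of 17, while within Elavl1 4 of 8 and within Ptbp1 12 of 22 were.

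The lowest and the highest probeset of each gene were as follows. In Ptbp1 the lowest difference was -0.21 at probeset 21 (79327145 to 79327178), which had a mean signal of 102, below the median of the intron controls of 114, and the highest was 0.061 at probeset 1. In Ptbp2 they were -0.16 at probeset 12 (119423246 to 119423375) and 0.026 at probeset 14, which the table places in the same exon at the 3′ end. Elavl2 ran from -0.20 at probeset 6 (90975302 to 90975328), with 27 bases and a mean signal of 713.1, to 0.031 at probeset 11. Elavl3 ran from -0.073 at probeset 6 to 0.029 at probeset 2. Elavl4 ran from -0.16 at probeset 4 (109899153 to 109899242) to 0.018 at probeset 3, Mbnl1 from -0.13 at probeset 4 (60333595 to 60333720) to 0.11 at probeset 2, and Mbnl2 from -0.15 at probeset 5 (120784631 to 120784739) to 0.024 at probeset 7. The lowest adjusted p among these was 0.771.

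The exon of Elavl1 nearest the 3′ end held 4 probesets, which differed in direction. Probeset 6 (4289601 to 4289629) had signals of 2523, 2913 and 3316 (lowest, median, highest) in wildtype and of 2463, 2620 and 2819 in KIS-ko brains, the lowest difference of Elavl1 at -0.16, with 5 of 6 KIS-ko littermates lower (adjusted p = 0.757). It is marked as matching further places. Its neighbour, probeset 7 (4289390 to 4289492), differed by -0.13, with 5 of 6 lower. On either side, probeset 5 (4289651 to 4289896) differed by 0.008 and probeset 8 (4288599 to 4289023) by 0.043, the highest of Elavl1. The signals of the genotypes overlapped for all 4.

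**Figure D5:**
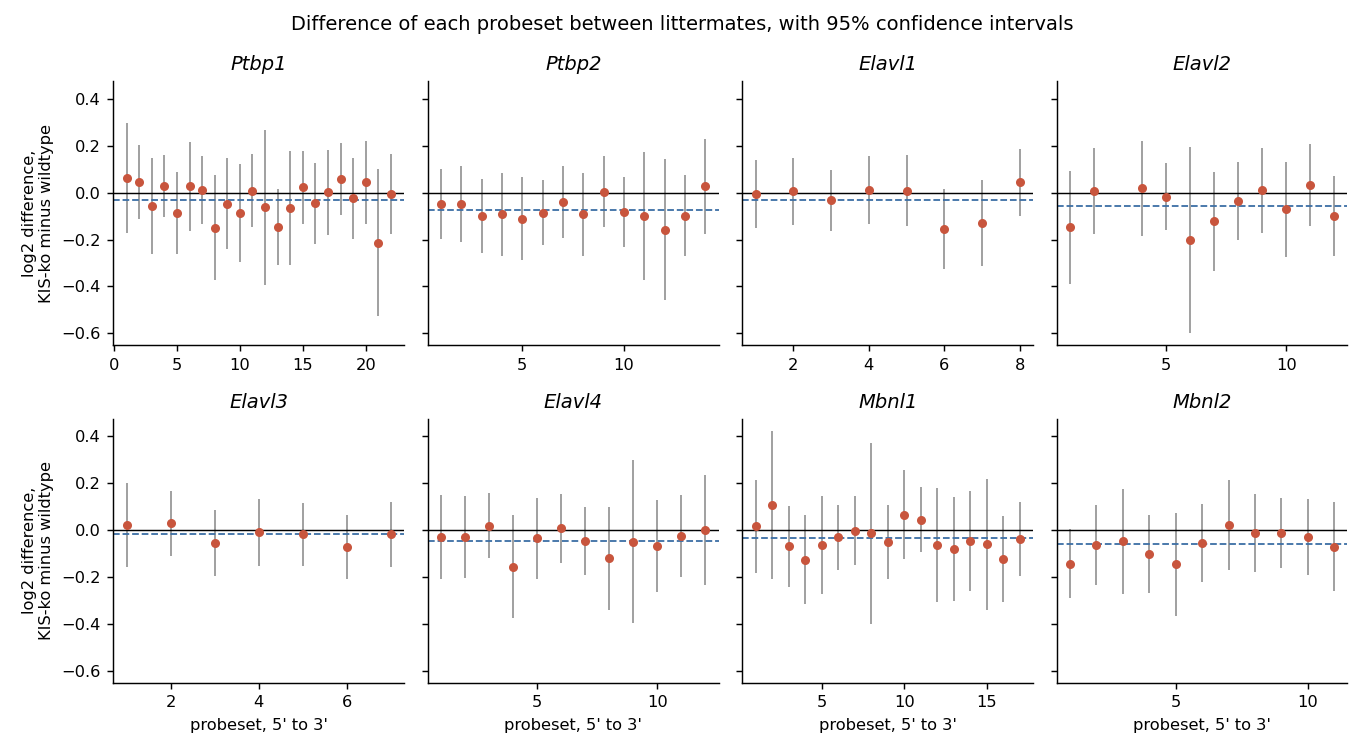
Log2 difference between KIS-ko and wildtype littermates of each kept probeset of 8 splicing regulators, numbered from the 5′ to the 3′ end, with 95% confidence intervals (grey) from limma over 6 litters. The dashed line is the difference of the gene. Every interval includes 0.

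To separate exon usage from the level of the gene, a splicing index was taken as the log2 value of a probeset minus its gene value. Of the 102 splicing indexes of the regulators, 0 passed an adjusted p of 0.05 (limma, with a variance for each probeset), which 0.000985% of 202944 splicing indexes did. Again 0 had an unadjusted p under 0.05, against 6.11% in the table. The 3 largest differences were -0.18 (SE 0.12) at probeset 21 of Ptbp1, -0.15 (SE 0.16) at probeset 6 of Elavl2 and 0.14 (SE 0.14) at probeset 2 of Mbnl1 (60305310 to 60305337), with adjusted p of 0.862, 0.924 and 0.912. The mean signals of these probesets were 102, 713.1 and 364, all below the border of the intron controls, which is 713.3 before rounding to 713. The KIS-ko littermate had a lower splicing index in 4, 5 and 2 of 6 litters. The index differed in the same direction in all 6 litters at 5 of the 102 probesets (4.90%), as it did at 3.18% of all probesets. It was higher in KIS-ko at probeset 8 of Elavl1 by 0.075, at probeset 9 of Elavl2 by 0.067 and at probeset 2 of Elavl3 by 0.047. It was lower at probeset 6 of Elavl3, with a difference of -0.055, and at probeset 1 of Mbnl2, with -0.083, and the lowest adjusted p of the 5 was 0.861. In a second test, diffSplice of limma with 1 variance per gene, the lowest adjusted p of the 8 genes was 0.741, for Elavl1, and 0 of 8 were called, against 1.86% of 15572 genes.

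No difference passed the test among the other RNA binding proteins known for tissue-specific exon choice either. Of 26 listed, 21 were measured: Rbfox1, Rbfox2 and Rbfox3, the paralogues Ptbp3 and Mbnl3, Celf1 to Celf4 and Celf6, Khdrbs1 to Khdrbs3, Qk, Raver1, Raver2, Tia1, Tial1, Esrp1, Esrp2 and Rbm38. A lower mean in KIS-ko was seen in 16 and a higher one in 5, with a median log2 difference of -0.024 against -0.036 for all genes. Of all genes 69.8% were lower. By limma 0 of 21 passed the adjusted threshold, as did 0.00579% of all genes, and 0 had an unadjusted p under 0.05, against 6.16%. The 5 of largest difference were Ptbp3, the third polypyrimidine tract protein, and Mbnl3, both at -0.060, Raver2, a partner of Ptbp1, at -0.054, Esrp2, an epithelial regulator, at 0.045, and Tial1, a stress granule protein, at -0.040. Their 95% confidence intervals all included 0, with the widest reach at -0.20 for Mbnl3 and 0.18 for Esrp2. With dim probesets left out Esrp2 differed by 0.16, with an unadjusted p of 0.0146 and an adjusted p of 0.748 by limma. Mbnl3, Esrp1, Esrp2 and Rbm38 were below the border of the intron controls, with median probeset signals of 158, 73.1, 170 and 598. Rbfox3, the neuronal nuclear antigen NeuN, differed by 0.003 (-0.11 to 0.12).

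The splicing indexes of 16 textbook targets of the regulators were also examined. Of these genes, 5 are targets of Nova, and Nova1 itself was not measured. The probesets were not matched to the regulated exons, so whether those exons are among them is not known here, and the counts do not measure the activity of a regulator. They included Glra2, Kcnj6, Gphn and Agrn for Nova, Dlg4, Src, Clta and Cltb for Ptbp, Insr, Mapt, Grin1 and Tanc2 for Mbnl, and Nf1 and Apc for Elavl. Of their 331 splicing indexes 0 passed an adjusted p of 0.05, and 7 (2.11%) had an unadjusted p under 0.05, against the 6.11% of the table. By regulator the unadjusted count was 1 of 108 for Nova, 1 of 47 for Ptbp, 3 of 96 for Mbnl and 2 of 80 for Elavl. Among probesets above the border of the intron controls, the 3 largest differences were all in Agrn, which encodes agrin, the organizer of acetylcholine receptor clusters. They were -0.19 (SE 0.14), 0.16 (SE 0.067) and -0.15 (SE 0.10), with adjusted p of 0.879, 0.813 and 0.865. Src, a target of Ptbp1, had its lowest p at a probeset with a splicing index difference of -0.11 (SE 0.047), lower in 6 of 6 litters (adjusted p = 0.810).

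The lowest p among all target probesets were in Nf1, at -0.36 (SE 0.066, adjusted p = 0.574), and in Tanc2, at -0.50 (SE 0.11, adjusted p = 0.665), lower in KIS-ko in 6 of 6 litters each. Both probesets were dim, with mean signals of 311 in Nf1 and 106 in Tanc2. The Tanc2 signal was below the median of the intron controls, 114. In diffSplice, a test per gene with 1 variance for each, added for the targets after the values had been seen, the same 2 of 16 genes passed, Tanc2 at an adjusted p of 0.00131 and Nf1 at 0.00846, as did 1.86% of 15572 genes. The per-probeset test and the per-gene test differ in the unit tested, the variance and the number of tests adjusted over.

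Finally, the genes most like each regulator over the 12 arrays were sought among 6051 other genes with at least 4 probesets and a median signal above the control border. The measure was the Pearson correlation of gene values after the array median was subtracted. The 2 nearest were Cnpy3 and Wbp11 for Ptbp1 (r = 0.965 and 0.960), Trip12 and Rasa1 for Ptbp2 (0.955 and 0.95), and Rsf1 and Adam22 for Elavl2 (0.865 and 0.862). They were Bat2l and Ttl for Elavl3 (0.962 and 0.938), Drp2 and Trove2 for Elavl4 (0.948 and 0.942), Mtch2 and Erbb2ip for Mbnl1 (0.906 and 0.903), and Dnajc5 and Hlf for Mbnl2 (0.949 and 0.937). For Elavl1 the second nearest was Sod2 (0.884). No regulator was among the 2 nearest genes of another. Without the 2 arrays farthest from the regulator's median, r lay between 0.785 for Rsf1 and 0.935 for Trip12. These values are the highest of a long search over arrays that share litters, and are given as a description without a test.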

How the data were processed

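Total RNA of 12 newborn female brains, 6 per genotype, was measured with 1 array each. The authors processed the arrays with the Affymetrix Expression Console, using quantile normalization at the exon level and PLIER, and deposited the linear signal intensity of each probeset. The annotation build is not given in the sources used here, and RefSeq names served only to match symbols. Main probesets with a symbol were kept unless their relative SD exceeded 0.4 in either genotype, as in the study's methods. This rejected 15948 and kept 205469. Gene values were means over probesets of log2(signal + 16).

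Genes, probesets and splicing indexes (genes with at least 3 probesets) were fitted with limma 3.58.1 in R 4.3.3 with the litter as a block, and p-values were adjusted by Benjamini-Hochberg over the whole table at 0.05. The steps were tested on simulated data. The labels give each littermate pair 1 litter; over all genes the deviations of 2 littermates, each from the mean of its genotype, correlated at -0.114 to 0.473 (mean 0.10), against a mean of -0.019 between litters. No 2 arrays were identical (correlation of log2 values 0.978 to 0.992). Precision was limited by the number of arrays.

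The members, lists and tests were chosen with earlier results of these data known. Named were every regulator, Uhmk1, the 5 other regulators of largest difference, each regulator's highest and lowest probeset, the 3 largest splicing index differences of regulators and of bright target probesets, and 2 genes of like profile. The ratios of paralogues, the exon at the 3′ end of Elavl1, and the Nf1, Tanc2, Src, Rbfox3 and Gfap values were chosen after the values had been seen. Listed genes without a matching symbol were not analysed here: Nova1, Nova2, Celf5, Srrm4, Rbm20, Rbm24, Flna and Kcnj13. Some listed genes enter the totals but are not reported here by name. Alternatives tried were leaving out the litter block, other pseudocounts, filters, scalings and summaries, and each litter left out. Python 3.11.15 with pandas 2.3.3, numpy 2.4.6 and matplotlib 3.10.9 gave the tables and plots.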

Additional observations from a re-analysis of the deposited data

Results flagged for a closer look

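Of 32 groups of 6 values of the regulators (gene values of either genotype, littermate differences, and these less the median gene), 4 held a value far from the other 5 by Dixon's criterion, the gap to the nearest value over the range. In a single group of independent, normally distributed values, chance gives this about 1 time in 20. The 32 groups are not independent, because the differences are computed from the same gene values. The count of 4 was therefore not compared with that rate. The wildtype brain of litter 5 had an Elavl4 gene value of 10.61, below the other wildtype brains by 0.762 of the range, and its KIS-ko littermate was at 10.63. The wildtype brain of litter 4 had an Mbnl1 gene value of 10.29, at 0.797 of the range. The same litter had an Mbnl1 littermate difference of 0.25, above the others by 0.715 of the range. For Mbnl2 the difference in litter 3, less the median gene, was 0.13, above the others by 0.697 of the range.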

How the results depend on the processing

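No regulator, probeset, splicing index or litter term of the regulators passed an adjusted p of 0.05 under any alternative run, and neither did one of the other regulators. Without the replicate block the 8 log2 differences were the same by construction, 0 were called and 1 regulator probeset (of Elavl1) had an unadjusted limma p under 0.05, in place of 0, against 5.79% of all probesets. With arrays centred on their medians, 3 regulators were lower in KIS-ko, and the log2 differences turned to 0.025 for Ptbp1, 0.025 for Elavl1, 0.040 for Elavl3, 0.013 for Elavl4 and 0.025 for Mbnl1, with Ptbp2 at -0.016, Elavl2 at -0.0010 and Mbnl2 at -0.0030. With a second quantile normalization, 5 were lower, and they turned to 0.0013 for Ptbp1, 0.015 for Elavl3 and 0.0071 for Mbnl1, with Ptbp2 at -0.044, Elavl1 at -0.0063, Elavl2 at -0.020, Elavl4 at -0.011 and Mbnl2 at -0.024. These scalings moved the median of all genes to 0.018 and 0.003, and 38.7% and 48.3% of all genes were lower. Unadjusted counts of regulator probesets became 1 with a relative SD filter at 0.2, 2 with dim probesets left out and 2 with trended, robust moderation, against 7.67%, 5.74% and 6.98% of all probesets. Leaving out dim probesets also gave 1 regulator splicing index (Elavl1) and 1 other regulator (Esrp2, at 0.16, when 5.64% of all genes had such a p), and 4 target splicing indexes in place of 7, against 4.89% of all splicing indexes. Target splicing indexes numbered 11 without the filter and 4 with trended, robust moderation, against 5.79% and 5.99%. The per-gene test diffSplice, added after the values were seen, called 2 of 16 target genes, a count of genes and not of splicing indexes.

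When each litter was left out in turn, the number of regulators lower in KIS-ko stayed at 8, and 65.6% to 71.8% of all genes were lower. Regulators with an unadjusted p under 0.05 numbered 0 to 1, their probesets 0 to 13, their splicing indexes 0 to 5 and target splicing indexes 2 to 23, and 0 to 1 regulators changed by 6% or more with the study's measure. Each highest value came from leaving out litter 4, when Ptbp2 was the 1 regulator, and when 16.3% of all probesets and 12.4% of all splicing indexes had an unadjusted p under 0.05. The cause was not tested. Leaving out 1 litter moved the log2 differences within -0.072 to -0.0022 for Ptbp1, -0.12 to -0.049 for Ptbp2, -0.049 to -0.022 for Elavl1, -0.093 to -0.033 for Elavl2, -0.032 to -0.0002 for Elavl3, -0.086 to -0.0091 for Elavl4, -0.087 to -0.0058 for Mbnl1 and -0.099 to -0.039 for Mbnl2. With the median over probesets they were -0.069 for Elavl1, -0.094 for Elavl4, -0.0076 for Mbnl1 and -0.091 for Mbnl2, over probesets matching 1 place -0.014 for Elavl1 and -0.060 for Ptbp1, with dim probesets left out -0.036 for Elavl2 and -0.017 for Ptbp1, and with a relative SD filter at 0.2 -0.020 for Ptbp1.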
